A study of Mus musculus with 52 samples.

Results

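Selenoproteins carry selenocysteine, an amino acid in which selenium takes the place of the sulphur of cysteine. The 10 genes described here are Selenop, Selenow, Selenof, Selenok, Selenot, Selenos, Gpx1, Gpx3, Gpx4 and Txnrd1, matched by gene name among 39144 genes in the deposited tables, and all 10 were found in testes and in each of the other 7 tissues. They were chosen by gene name as selenoproteins encoded outside the Tug1 locus, with the expression values and genotype differences of these tissues already known, so every value below is a description with no test. None lies near Tug1: Gpx3 is on chromosome 11, as Tug1 is, but 51.3 Mb away, and the other 9 are on other chromosomes.

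RNA was sequenced from male mice that were wild type or homozygous for a deletion of Tug1 (Tug1-/-), a long noncoding RNA locus. The allele keeps only the start of Tug1, its promoter and exon 1, followed by lacZ in place of the rest. Testes came from 4 wild-type mice, 4 Tug1-/- mice and 3 rescue mice, which were Tug1-/- and carried a doxycycline-inducible Tug1 transgene with the CAGs-rtTA3 activator, on doxycycline diet from mating onward. The transgene lacks the 5′ part of Tug1 and had inserted at random in its 2 founders. The study's methods state no doxycycline diet for the other testes mice. In rescue, the transgene, the activator and the diet therefore cannot be told apart. Prostate came from 3 wild-type and 2 Tug1-/- mice. Spleen, liver, heart, eyes and MEFs (mouse embryonic fibroblasts, connective tissue cells grown in culture) came from 3 samples of each genotype. These organs and MEFs had a mixed C57BL/6J and 129S6 background. The testes labels list a Neo selection cassette for Tug1-/- and rescue mice but not for wild type, whereas the study's methods describe a colony bred to be free of it. If the labels hold, the cassette and the deletion cannot be told apart in testes. Brain values came from libraries outside the listed samples. Ages are not in the labels.

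The tables give 1 mean per group in TPM (transcript abundance scaled for gene length and to a common library total) and no value for single animals, so no spread between animals can be given for any value. Differences are log2 ratios of 2 group means with 0.1 TPM added to each, the second group over the first. A ratio past 1.5-fold in either direction, 0.58 on the log2 scale, is counted, and each count stands beside the share of all genes of at least 1 TPM past the same limit. In whole tissues, fewer cells of a type and less RNA per cell cannot be told apart.

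Selenocysteine is encoded by UGA, which elsewhere ends translation. A hairpin in the 3′ end of the messenger RNA, the SECIS element, with its binding protein and a dedicated elongation factor, makes the ribosome read UGA as selenocysteine. Selenoprotein P is made mostly in liver, circulates in plasma and brings selenium to other organs. In testis it is taken up through the receptor Lrp8 and feeds the synthesis of Gpx4, an enzyme of maturing sperm.

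The codon itself shows how the 10 genes differ. Each window below, read from the GRCm38 genome and the GENCODE vM21 annotation on the coding strand, holds the selenocysteine codon in capitals with up to 12 coding bases on either side. Coordinates are those of the codon. Windows that end early have reached the stop codon. The glutathione peroxidases are shown first because Gpx3, Gpx1 and Gpx4 lead several of the results below.
Gpx1, chr9:108339451-108339453, plus strand: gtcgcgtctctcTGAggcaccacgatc
Gpx3, chr11:54907256-54907258, plus strand: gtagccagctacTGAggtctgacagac
Gpx4, chr10:80054737-80054739, plus strand: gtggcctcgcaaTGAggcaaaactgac
Over these 27 bases Gpx1 and Gpx3 share 13, Gpx1 and Gpx4 share 17, and Gpx3 and Gpx4 share 16, compared position by position with the codon included.

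Selenop is the only member of the 10 with more than 1 such codon: it has 10 in a reading frame of 380 codons. The first stands alone at codon 59, and 7 of the 10 lie in the last 25% of the frame. The first and the last show the 2 settings. In the window of the last, only that codon is in capitals, and the selenocysteine codon before it, codon 375, stands there in lower case.
Selenop, first, chr15:3274848-3274850, plus strand: cttcaagccagcTGAtacttgtgtctt
Selenop, last, chr15:3279696-3279698, plus strand: aggaagtgaaaaTGAcattcaaactaa
In Txnrd1, Selenos and Selenok the codon comes next to the end of the frame. Only 1 codon follows it in Txnrd1 and in Selenos, and 2 follow it in Selenok, so these windows run into the stop codon.
Txnrd1, chr10:82896037-82896039, plus strand: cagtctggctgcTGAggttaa
Selenos, chr7:66088844-66088846, plus strand: tcatctggcggcTGAaactaa
Selenok, chr14:29973440-29973442, plus strand: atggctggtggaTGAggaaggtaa
In Selenow, Selenof and Selenot it lies inside the frame, at codon 13 of 88, codon 93 of 162 and codon 49 of 195. Selenow is shown for the contrast, since its frame also ends in TGA, read there as a stop.
Selenow, chr7:15920464-15920466, minus strand: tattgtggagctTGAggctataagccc

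The libraries were checked before the members were read. Tug1 was lower in Tug1-/- than in wild type by a log2 ratio of -5.35 in testes to -8.39 in spleen, and in rescue testes it was 1.60 TPM against 0.89 in Tug1-/- and 40.1 in wild type. The defining markers of each labelled tissue were present. Mean normalised counts over genes summed to 17573743 in brain and 38666994 to 48341823 in the other tissues, and the testes table holds no counts. Several means also carried genes of neighbouring tissue. In testes, 6 epididymal genes summed to 2743 TPM in wild type, 802 in Tug1-/- and 1.34 in rescue. In spleen, 5 pancreatic genes summed to 72.0 TPM in wild type and 7262 in Tug1-/-. In prostate, 5 seminal vesicle genes summed to 19935 and 59341 TPM, and in eyes 7 skeletal muscle genes summed to 5536 and 9833 TPM. The median of all genes was off 0 by -0.11 in eyes, 0.10 in heart and -0.11 in spleen, so the larger ratios of the members there are also given relative to it.

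Across the 8 tissues the spread of the 10 genes between genotypes was near that of all genes. Of their 80 log2 ratios of Tug1-/- over wild type, 65 were under 0.2 in either direction and 4, or 5%, were past 1.5-fold. Of all genes of at least 1 TPM, pooled over the 8 tissues, 66.8% of ratios were under 0.2 and 7.19% past 1.5-fold. With a minimum of 10 TPM, which the members exceeded except for Gpx3 in liver, these shares were 78.3% and 2.91%. The members' counts are thus no result about them as a set. The 4 past the limit belonged to 2 genes that encode secreted proteins: Gpx3 in testes, prostate and MEFs, and Selenop in MEFs. Leaving out testes, 3 remained. Of all genes, 10.5% were past the limit in spleen, 7.99% in prostate, 7.87% in eyes, 7.73% in MEFs, 6.26% in testes, 6.14% in brain, 6.02% in liver and 4.56% in heart.

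**Figure D1:**
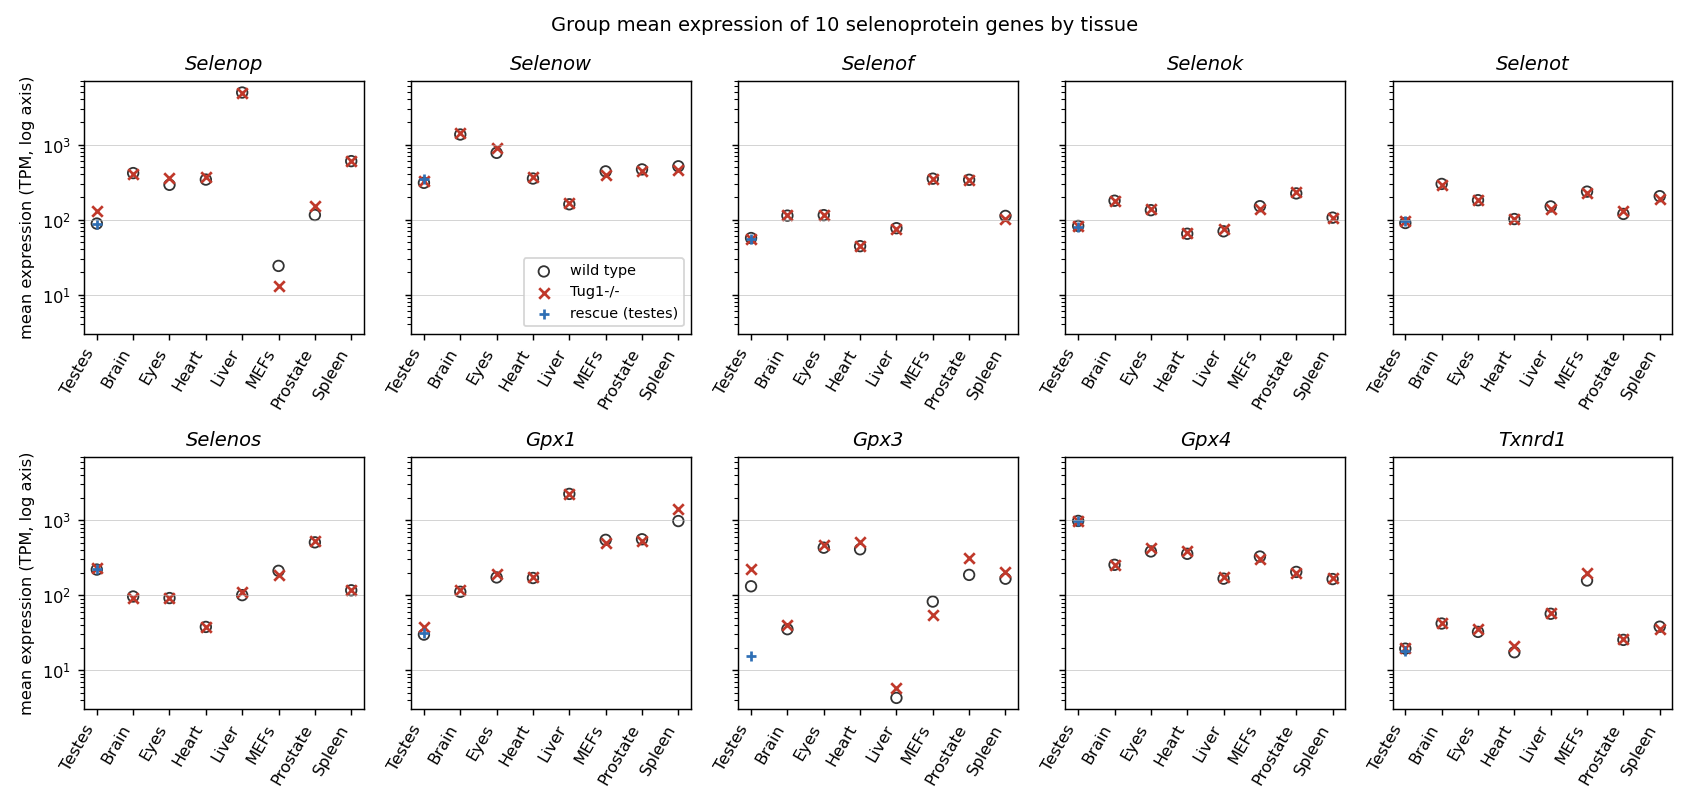
Mean expression of each of the 10 genes (TPM, log axis) in 8 tissues. Open circles are wild-type group means, crosses Tug1-/- means and plus signs the rescue mean in testes, with no error bars because the tables hold no single samples. Selenop peaks in liver at 4943 TPM, Gpx4 in testes at 979 TPM, and Gpx3 in rescue testes lies apart at 15.4 TPM.

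Gpx3 encodes the secreted plasma glutathione peroxidase, which kidney and several epithelia release. Its wild-type level ran from 4.28 TPM in liver to 431 TPM in eyes, with 410 in heart, 187 in prostate, 166 in spleen, 132 in testes, 82.3 in MEFs and 35.2 in brain. Eyes and heart stood at the top and liver far below all the rest, a 101-fold range. In Tug1-/- the means were 469 TPM in eyes, 517 in heart, 317 in prostate, 205 in spleen, 222 in testes, 54.1 in MEFs, 39.8 in brain and 5.85 in liver. Gpx3 was thus higher in Tug1-/- in 7 of 8 tissues, and lower in MEFs, the sample grown in culture.

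In testes Gpx3 was 132 TPM in wild type, 222 in Tug1-/- and 15.4 in rescue. The Tug1-/- mean was the highest of the 3 and the rescue mean the lowest, far below both. The log2 ratio was 0.75 for Tug1-/- over wild type, -3.84 for rescue over Tug1-/- and -3.09 for rescue over wild type. These comparisons share groups and are not independent. Of all genes, 2.75% were past 1.5-fold higher in Tug1-/- than in wild type, 3.22% past it lower in rescue than in Tug1-/-, and 5.14% lower in rescue than in wild type.

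Epididymal genes also differed between these testes means. The epididymis is the duct attached to the testis in which sperm mature. Crisp1, a secreted epididymal protein, followed the same order, with 427 TPM in wild type, 760 in Tug1-/- and 0.35 in rescue. Adam7, an epididymal surface protein, was 326, 39.8 and 0.02 TPM. The other 4 markers were high only in the wild-type mean: Lcn5 was 680 TPM there, Lcn8 799, Defb20 410 and Spint4 102, and each was at 1.01 TPM or less in both other groups. Gpx5, the epididymal glutathione peroxidase with cysteine in place of selenocysteine, was 1921 TPM in wild type, 0.98 in Tug1-/- and 0.30 in rescue. Thus Gpx3 and Crisp1 were high in 2 groups, and Gpx5 with 4 of the 6 markers in wild type alone. The part of the epididymal genes in the Gpx3 values was not tested.

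**Figure D2:**
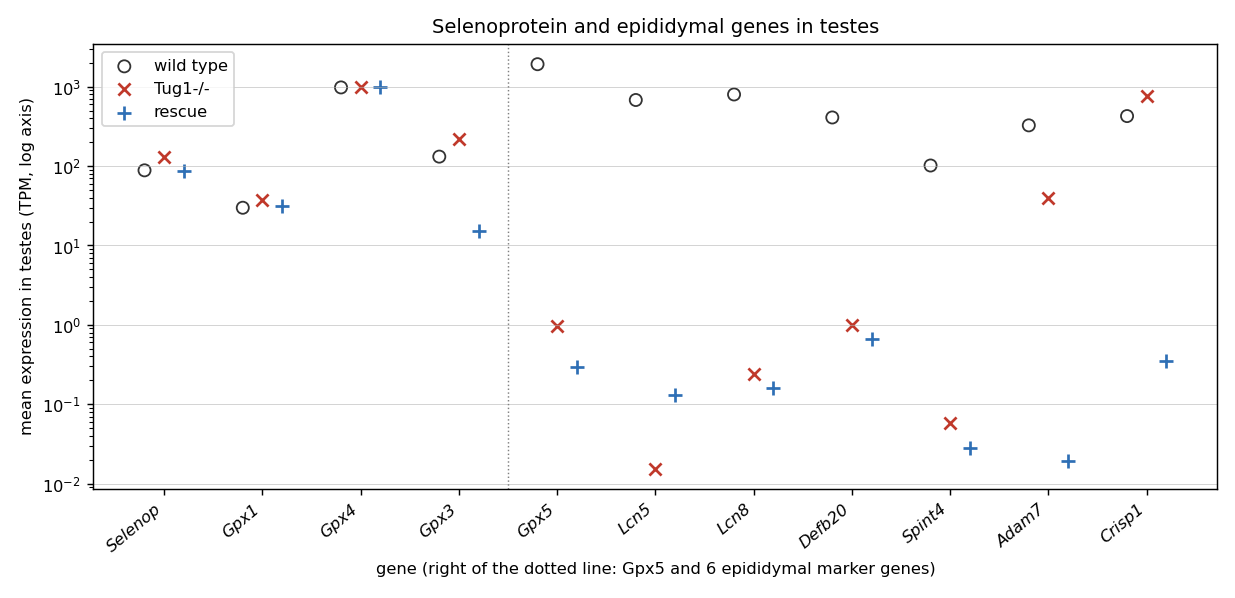
Mean expression in testes (TPM, log axis) of 4 of the selenoprotein genes, left of the dotted line, and of Gpx5 and 6 epididymal marker genes, right of it. Each gene has 1 mean for wild type (circle), Tug1-/- (cross) and rescue (plus). Gpx4 is level at 979, 986 and 978 TPM, while Gpx3 and Crisp1 are high in wild type and Tug1-/- and low in rescue.

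In prostate Gpx3 was 187 TPM in wild type and 317 in Tug1-/-, a log2 ratio of 0.76, with 5.32% of all genes past the limit in that direction. It was the only one of the 10 past the limit there. The Tug1-/- mean rests on 2 mice. All 4 adipocyte markers were past 1.5-fold higher in the same mean, their sum 89.9 TPM in wild type and 454 in Tug1-/-, and 7 of 9 macrophage markers were, with sums of 280 and 442 TPM. Erythroid markers summed to 162 and 292 TPM. Seminal vesicle genes, from the gland beside the prostate, had the widest shift in TPM of these lists, with the sums of 19935 and 59341 given above, though 3 of 5 were higher and 2 lower. Their part in the result was not tested.

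In MEFs Gpx3 was 82.3 TPM in wild type and 54.1 in Tug1-/-, a log2 ratio of -0.60. Selenop was lower in the same cells, and 3.91% of all genes were past the limit in that direction. The 5 fibroblast markers summed to 11324 TPM in wild type and 10647 in Tug1-/-, with none past the limit. Macrophage markers, of which 8 of 9 passed the level of 1 TPM, summed to 626 and 688 TPM, with 2 past the limit higher and 1 lower. Of those 8, 6 were lower in Tug1-/- and the median ratio was -0.39, while Lyz2 alone went from 183 to 342 TPM. Their part in the Gpx3 and Selenop values was not tested. Adipocyte markers summed to under 1 TPM in both.

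Elsewhere Gpx3 ratios were inside the limit. They were 0.44 in liver, where both means were under 6 TPM, 0.33 in heart, 0.30 in spleen, 0.18 in brain and 0.12 in eyes. Relative to the median of all genes they were 0.23 in heart, 0.41 in spleen and 0.23 in eyes. Macrophage markers were higher in 9 of 9 genes in both liver and heart, with sums of 312 and 471 TPM in liver and 687 and 864 in heart. In heart other lists were lower: adipocyte markers summed to 466 TPM in wild type and 382 in Tug1-/-, with 3 of 4 past the limit, and erythroid markers, lower in 7 of 7 genes, to 44645 and 34969 TPM with none past it. Of the lymphoid markers 4 of 4 were past it lower, and of the skeletal muscle markers 5 of 7, although the sum of the latter was 1293 TPM in wild type and 1379 in Tug1-/-. In spleen, by contrast, 8 of 9 macrophage markers were lower in Tug1-/- and 1 was higher, with sums of 7524 and 7085 TPM. All 7 erythroid and all 5 pancreatic markers were past the limit higher there. In eyes, macrophage markers were higher in 9 of 9 genes, and all 4 adipocyte markers were past the limit higher. The part of these cells in the Gpx3 values was not tested.

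Selenop encodes the plasma selenium carrier. Its wild-type level was 4943 TPM in liver, where it ranked 26 among all genes, then 601 in spleen, 416 in brain, 341 in heart, 291 in eyes, 115 in prostate, 88.4 in testes and 24.1 in MEFs. Liver stood far above the rest and MEFs lowest, a 205-fold range and the widest of the 10 genes. In Tug1-/- liver it was 4933 TPM, in spleen 595, in brain 406 and in heart 364. In these 4 tissues, the source organ included, the genotypes differed by less than 0.1 on the log2 scale.

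Selenop was 24.1 TPM in wild-type MEFs and 12.8 TPM in Tug1-/- MEFs, a log2 ratio of -0.90, the largest of the 80 in size. In testes it was 88.4 TPM in wild type, 131 in Tug1-/- and 85.9 in rescue. The Tug1-/- mean was the highest and the other 2 were alike. The log2 ratio was 0.57 for Tug1-/- over wild type, just inside the limit, -0.61 for rescue over Tug1-/- and -0.04 for rescue over wild type. It was 0.40 in prostate, from 115 to 152 TPM, and 0.32 in eyes, from 291 to 362 TPM, or 0.42 relative to the median of all genes.

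Leydig cells, which make testosterone, and macrophages had higher markers in Tug1-/- testes too. All 6 Leydig markers were higher in Tug1-/- than in wild type, 3 of them past 1.5-fold, and their sums were 490 TPM in wild type, 751 in Tug1-/- and 649 in rescue. The list was split in rescue over Tug1-/-, with 3 higher and 3 lower. Insl3 was 56.9 TPM in wild type, 144 in Tug1-/- and 65.5 in rescue, and Cyp11a1 43.2, 75.5 and 83.0. The 9 macrophage markers summed to 122, 163 and 163 TPM, and 8 Sertoli markers to 1321, 1550 and 1585 TPM. Skeletal muscle markers, 7 genes, summed to 12.6, 55.3 and 18.2 TPM, high in Tug1-/- as Selenop was. The 8 germ cell markers summed to 64727, 61548 and 60013 TPM, with none past the limit. The 4 adipocyte markers summed to 32.6, 42.4 and 35.3 TPM, also highest in Tug1-/-. Among them Cfd was 5.54, 13.4 and 8.12 TPM, while Adipoq was level at 23.7, 23.3 and 22.8 TPM. In eyes, where Selenop was also higher, skeletal muscle markers were higher, as given above, and so were all 4 adipocyte markers, at 177 TPM in wild type and 750 in Tug1-/-. Erythroid markers summed to 700 and 2180 TPM there, with 5 of 5 past the limit, and macrophage markers, higher in 9 of 9 genes, to 903 and 1167 TPM. In prostate, where Selenop was higher too, the adipocyte, macrophage, erythroid and seminal vesicle sums were higher in Tug1-/-, as given beside Gpx3. The part of these cells in the Selenop values was not tested.

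Gpx1 encodes the cytosolic glutathione peroxidase, abundant in liver and red cells. Wild-type levels were 2247 TPM in liver, 975 in spleen, 558 in prostate, 548 in MEFs, 173 in eyes, 170 in heart, 111 in brain and 29.9 in testes. Testes were lowest, 75.2-fold below liver. In spleen the mean was 975 TPM in wild type and 1409 in Tug1-/-, a log2 ratio of 0.53, inside the limit as deposited and past it, at 0.64, relative to the median of all genes.

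Erythroid markers were higher in the same spleens. All 7 were past 1.5-fold higher, and their sum was 25435 TPM in wild type and 45945 in Tug1-/-. Prdx2, an abundant peroxidase of red cells, was 225 and 389 TPM, a log2 ratio of 0.79. Lymphoid markers summed to 4348 and 3275 TPM, 9 macrophage markers to 7524 and 7085 TPM, and 5 pancreatic genes to 72.0 and 7262 TPM. Their part in the Gpx1 value was not tested. In testes Gpx1 was 29.9 TPM in wild type, 37.8 in Tug1-/- and 31.0 in rescue, with log2 ratios of 0.34 for Tug1-/- over wild type and -0.28 for rescue over Tug1-/-, so that Tug1-/- was highest, as for Selenop. The 7 erythroid markers summed to 48.4, 40.8 and 41.0 TPM there. Of the 5 that reached 1 TPM, 4 were past the limit lower in Tug1-/- than in wild type and 1 was higher. In the other 6 tissues the ratio was under 0.2 in size as deposited, and in eyes it was 0.14, or 0.25 relative to the median of all genes. Erythroid sums were higher in Tug1-/- eyes and prostate, as given above, and in prostate the Gpx1 ratio was -0.06. In heart, where the erythroid sum was lower, the Gpx1 ratio was 0.04.

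Gpx4 encodes the peroxidase that reduces lipid peroxides in membranes and forms part of the sperm midpiece capsule. Its wild-type level was highest in testes, at 979 TPM, where it ranked 95 among all genes, and made up 48.8% of the summed level of the 10. It was 384 TPM in eyes, 357 in heart, 328 in MEFs, 255 in brain, 205 in prostate, 166 in liver and 164 in spleen. In testes of Tug1-/- mice it was 986 TPM and in rescue 978 TPM, so the 3 means were alike. In every tissue its ratio was between -0.13 and 0.16 as deposited. Relative to the median of all genes it was 0.26 in eyes, 0.03 in heart and 0.14 in spleen.

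Selenow, a small selenoprotein with a thioredoxin-like fold, was highest in brain, at 1361 TPM in wild type and 1420 in Tug1-/-. It made up 46.8% of the summed level of the 10 in wild-type brain. Eyes followed with 776 and 895 TPM, a log2 ratio of 0.21, the largest for this gene in size, or 0.31 relative to the median of all genes. Liver was lowest with 160 and 164 TPM. In testes it was 309 TPM in wild type, 326 in Tug1-/- and 345 in rescue.

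Txnrd1, the cytosolic thioredoxin reductase that keeps thioredoxin reduced, was highest in MEFs, at 157 TPM in wild type and 201 in Tug1-/-. That log2 ratio of 0.35 was opposite in direction to the other 9 genes in MEFs, all of which were lower. In heart it was 17.4 and 21.2 TPM, a ratio of 0.29, or 0.18 relative to the median of all genes. In testes it was 19.4 TPM in wild type, 19.6 in Tug1-/- and 18.3 in rescue. Eid3, a gene of 793 TPM in wild-type testes, lies inside Txnrd1 on the same strand, so reads there may be shared.

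The 4 selenoproteins of the endoplasmic reticulum had small differences in every tissue. They are Selenof, which binds the enzyme that checks glycoprotein folding, Selenok and Selenos, which take part in clearing misfolded proteins, and Selenot, a membrane oxidoreductase. All 32 of their ratios over 8 tissues were between -0.16 and 0.16 as deposited, and between -0.21 and 0.16 relative to the median of all genes. Selenos ran from 37.8 TPM in heart to 507 in prostate in wild type, with 533 TPM in Tug1-/- prostate. Selenof ran from 44.2 in heart to 351 in MEFs, with 347 in Tug1-/- MEFs. Selenok ran from 64.6 in heart to 223 in prostate, and Selenot from 89.9 in testes to 298 in brain. Heart was the lowest tissue for 3 of these 4.

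**Figure D3:**
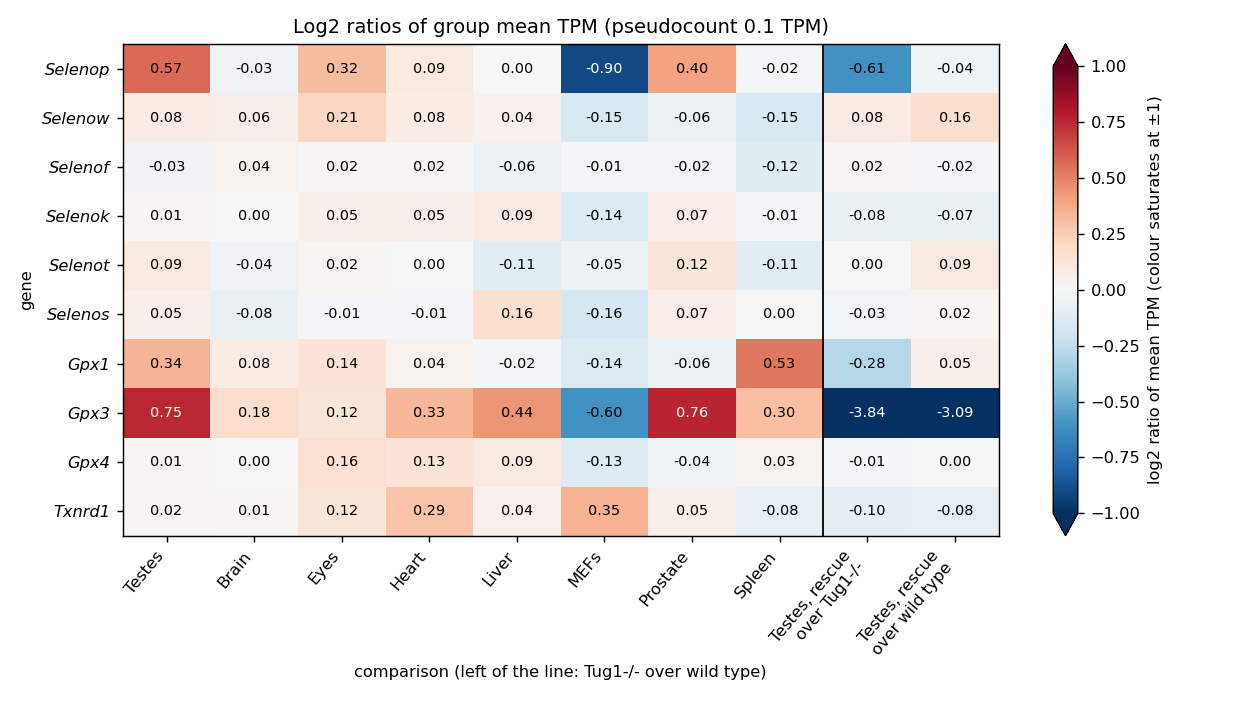
Log2 ratios of group mean TPM for the 10 genes, with 8 columns of Tug1-/- over wild type and 2 of rescue testes right of the line. Colour saturates at 1 in either direction. The cells of strongest colour are in the Gpx3 and Selenop rows, with -3.84 for Gpx3 in rescue over Tug1-/- testes, and the Gpx4 row, as deposited, stays between -0.13 and 0.16.

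Read by tissue, the 10 genes did not differ in 1 common direction. Their median log2 ratio was -0.14 in MEFs against 0.05 over all genes, 0.12 in eyes against -0.11, and -0.01 in spleen against -0.11. It was 0.06 in testes against 0.03, 0.06 in prostate against 0.04, 0.06 in heart against 0.10, 0.04 in liver against 0.01, and 0.01 in brain against -0.03. In heart 9 of 10 were higher as deposited, but 3 of 10 relative to the median of all genes. In testes 9 were higher as deposited and 6 relative to that median, in eyes 9 and 10, and in spleen 4 and 7. In MEFs 9 of 10 were lower under each of these scalings. Their summed level was 0.797% of all transcripts in wild-type liver, where Selenop alone gave 62.0% of it, and 0.190% to 0.300% in the other wild-type tissues.

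In rescue testes, Gpx3 and Selenop were the members past the limit against Tug1-/-, both lower, and Gpx3 alone was past it against wild type. Over all genes 4.65% and 7.93% were past it. The other 8 genes lay between -0.28 and 0.08 against Tug1-/-.

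The machinery around these proteins was read from 4 lists. For 9 genes of selenocysteine synthesis and insertion, among them Secisbp2, which binds the SECIS hairpin, and Eefsec, the elongation factor, 0 of 72 values over 8 tissues were past 1.5-fold, and the ratios ran from -0.28 to 0.25. These counts, and those of the next lists, stand beside 7.19% of all genes past the limit, pooled over the tissues, and nothing particular to a list is read from them. Of 77 values of the other selenoprotein genes outside the locus, 1 was past it: Dio2, which converts thyroxine to its active form, in eyes, at 10.2 TPM in wild type and 15.6 in Tug1-/-, a ratio of 0.61. Txnrd2 in spleen was just inside it as deposited, at 19.6 and 29.4 TPM, where the median of all genes was -0.11. Selenoprotein P receptors gave 1 of 16: Lrp2 in testes, at 1.63 TPM in wild type, 3.13 in Tug1-/- and 0.39 in rescue. That is the order of Gpx3 and of the epididymal gene Crisp1, and the part of epididymal genes in it was not tested. Lrp8, the testis receptor, was 31.0, 32.5 and 33.9 TPM.

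Relatives with cysteine and partner enzymes gave 5 of 108 values past the limit, 1 higher and 4 lower. The higher one was Prdx2 in spleen. The lower ones were Gpx5 in testes, Gpx8, a peroxidase of the endoplasmic reticulum, in testes from 13.6 to 7.97 TPM, and Gpx6 in brain from 3.47 to 1.73 TPM and in liver from 2.40 to 1.38 TPM. Selenom, a selenoprotein gene beside Tug1, was by contrast past the limit in 7 of 8 tissues, with ratios of 0.51 in spleen to 1.09 in heart. These are as deposited, and in spleen, where Selenom was inside the limit, the median of all genes was -0.11. It was 6.24 TPM in wild-type testes, 13.3 in Tug1-/- and 12.1 in rescue.

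**Figure D4:**
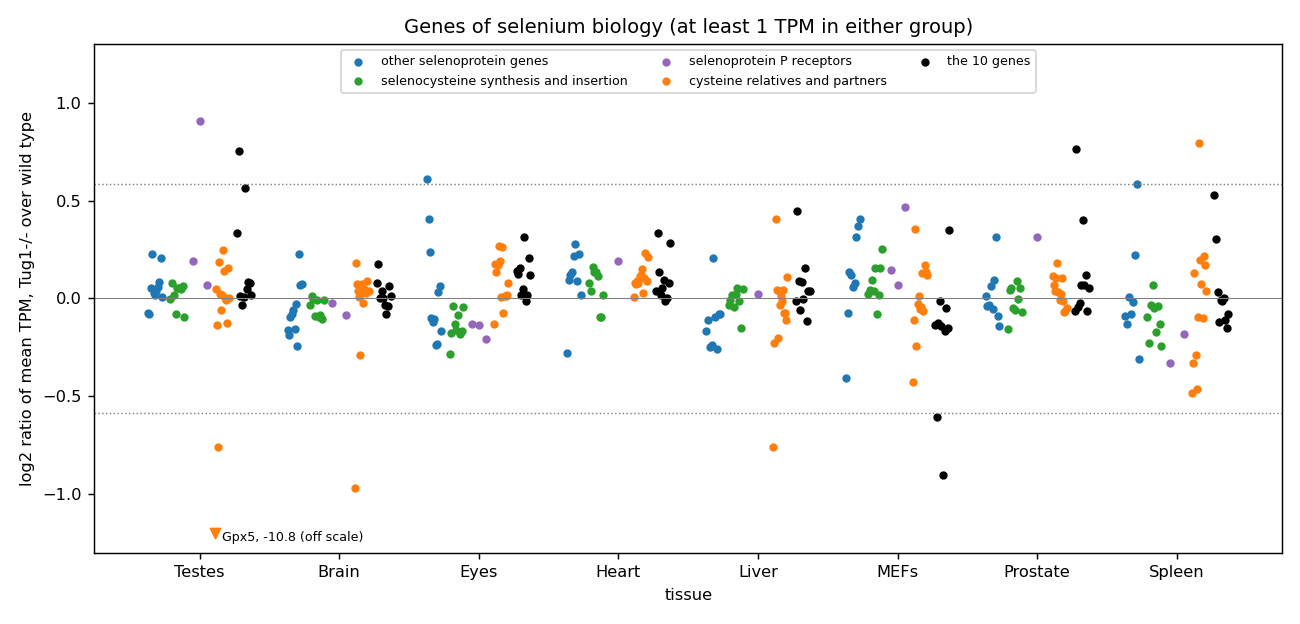
Log2 ratio of mean TPM, Tug1-/- over wild type, by tissue, for each gene of at least 1 TPM in either group in 4 lists of selenium biology and for the 10 genes (black). Dotted lines mark 1.5-fold, and Gpx5 in testes is drawn off scale as a triangle. Most points lie inside the lines, and none of the genes of synthesis and insertion is outside them.

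The levels over tissues were also matched with all other genes. The genes most like each member over the 8 wild-type means, among 18910 genes of at least 10 TPM in some tissue, were sought by Pearson correlation of log2 TPM. For Selenop they were Hsd11b1 (0.97), Cmbl (0.97) and Cyp27a1 (0.96), for Gpx3 Agtrap (0.94), Scn7a (0.91) and Cand2 (0.91), for Gpx4 1700017M07Rik (0.99), Mtfr1l (0.99) and Rab3ip (0.97), and for Selenow Abr (0.99), Rpusd1 (0.99) and Nudcd3 (0.99). The points are 8 group means of different tissues, and the highest of so many correlations is high by choice. The wild-type testes mean among them carried the epididymal genes given above.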

How the data were processed

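Poly(A) RNA was made into libraries with a kit that does not mark strand. The authors aligned reads to GRCm38 with STAR, counted uniquely mapped reads with featureCounts, removed genes under 3 reads in every replicate and fitted DESeq2. CASAVA 1.8.2 is named in the submitters' processing notes. The deposited TPM values are the authors' group means. The deposited mean normalised count per gene is a signal over all libraries of a comparison, used only for depth. Other deposited columns hold the authors' own fold changes, statistics and p-values and were not used. No column of single samples was given, so neither errors nor tests could be computed, and depth per sample is unknown.

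Log2 ratios of TPM means were computed with Python 3.11.15, numpy 2.4.6 and pandas 2.3.3, with a pseudocount of 0.1 TPM, which understates the ratio of low genes. Background shares used genes whose mean reached 1 TPM in 1 or more groups. The code was tested on simulated data. Alternatives were pseudocounts of 1 and 0.01 TPM, centring on the median gene, rescaling without mitochondrial and the 100 most abundant genes, other minimum levels and other fold limits. Members, lists and rules were chosen with earlier results of these data known. All 10 members are named. Of the 4 lists, genes past 1.5-fold are named, up to 5 a list, with at least 1 TPM in either group, and Secisbp2, Eefsec and Lrp8 were named for their roles. Reads may be shared with overlapping genes, which was not measured. On the other strand, Ccdc152 overlaps the 3′ end of Selenop by 439 bases and Gm24406 overlaps Selenof by 128 bases. Gm38560 overlaps Txnrd1 by 13276 bases on the other strand, and its highest wild-type mean was 8.45 TPM, in eyes. Testes of F1 hybrid mice, 6 samples, were not analysed here.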

Additional observations from a re-analysis of the deposited data

How the results depend on the processing

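No paired analysis was possible because the tables hold group means with no replicate numbers, and for the same reason no replicate could be left out. A value was counted as moved at a shift over 0.1 on the log2 scale, a limit set after first values were seen, and a count or share at over 1.5 times. The 4 member ratios past 1.5-fold stayed 4 with pseudocounts of 1 and 0.01 TPM, with rescaling and without brain, and were 3 without testes, a choice added after seeing the data. They were 5 after centring, which brought in Gpx1 in spleen, 11 with a limit of 0.32 on the log2 scale and 0 with a limit of 2-fold. No member ratio past the limit turned its direction under any scaling or pseudocount. Centring moved the members' median to 0.23 in eyes, -0.039 in heart and 0.10 in spleen, and rescaling moved it to -0.059 in heart. The share of all genes past the limit also moved with the limit, the minimum level and the higher pseudocount. Values in percent follow in the order spleen, prostate, testes, MEFs, liver, heart, eyes, brain, rescue against Tug1-/- and rescue against wild type. With a limit of 0.32 on the log2 scale they were 27.0, 18.7, 14.4, 21.1, 17.5, 12.6, 21.6, 12.9, 11.8 and 17.8. With a 2-fold limit they were 3.55, 3.34, 2.78, 2.38, 1.9, 1.67, 2.13, 2.9, 1.96 and 3.77. With a minimum of 10 TPM they were 5.94, 2.74, 2.57, 2.32, 3.57, 1.68, 3.43, 0.765, 1.0 and 3.06. With no minimum, spleen stayed within 1.5 times and the other 9 were 13.5, 9.9, 12.7, 10.1, 8.75, 12.7, 12.6, 9.58 and 12.5. With a pseudocount of 1 TPM they were 6.48, 4.75, 3.66, 3.89, 3.54, 2.39, 4.37, 3.4, 2.35 and 4.8. Neither pseudocount moved a single member ratio by over 0.1. With no filter, the members' medians are the same by construction, since all 10 exceed the minimum.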
